A study of Mus musculus with 6 samples.

Results

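The contractile apparatus and the fuel and calcium machinery of the muscle fibre were followed through 42 genes in RNA of muscle stem cells (MuSCs). The genes were chosen by name from a list of sarcomere and muscle fibre genes, and all 42 were found among the 22706 genes of the deposited table. They comprised 6 myosin heavy chains, 5 myosin light chains, 3 myosin binding proteins, 3 genes of sarcomeric actin and nebulin, 7 troponins, 2 tropomyosins, 10 genes of titin, the Z-disc and the M-band and 6 genes of calcium handling and energy supply. By the fibre type they are best known for, 14 were fast fibre genes, 7 slow fibre genes, 5 developmental or cardiac forms and 16 belonged to no single type.

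RNA-seq was performed on freshly isolated MuSCs of 3 groups with 2 libraries each, on a C57BL/6 background. Control mice were wild type for dystrophin. The mdx mice carried the Dmd mutation that removes functional dystrophin and are the standard mouse model of Duchenne muscular dystrophy. Sirt6mKO/mdx mice carried the same mutation and, in addition, floxed Sirt6 alleles recombined by a Cre expressed from the Pax7 locus. This Cre acts in the whole muscle lineage from development on, so that fibres as well as MuSCs of these mice lack the floxed Sirt6 exons, and it is not a deletion induced in adult MuSCs. The mdx allele came from C57BL/10ScSn mice. Cells were sorted by flow cytometry from dissociated muscle, by Integrin-a7 and CD34 or by a Pax7 lineage reporter and without Sca1, CD45 and CD31, and ribosomal RNA was depleted from total RNA. The study describes its Sirt6mKO line as also carrying a ROSA26-YFP reporter. Its methods do not state which gate was used for each library, so it is not known whether the gate differed between the groups. Whether each library came from 1 mouse or from several was not given in the sources used here, so p-values measure the spread between these libraries.

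The sarcomere is the repeating contractile unit of striated muscle. Thick filaments of myosin slide along thin filaments of actin when calcium binds troponin and moves tropomyosin, titin spans from Z-disc to M-band, and the ryanodine receptor releases and the calcium pump retrieves calcium. Fast and slow fibres use different isoforms of most of these proteins, and embryonic and cardiac isoforms are used again when muscle regenerates. MuSCs are mononuclear cells that lie on the fibre and hold no sarcomeres. Desmin, an intermediate filament protein, is known to be made in them as well as in fibres.

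Values are normalized read counts, that is, reads per gene divided by a size factor of the library and rounded. The libraries held about 4398000 to 9744000 reads on genes, estimated from the pattern of the rounded values, and 18983 to 20614 genes above 0. Pax7, the transcription factor that defines MuSCs, stood at 2167 to 3236 in the 6 libraries. Sirt6 values of the libraries labelled Sirt6mKO/mdx (37 and 30) overlapped those of control (41 and 32) and mdx (33 and 40), so the gene's value gives the label no backing. The size of the deleted exons relative to the transcript was not measured here. The study itself reports efficient deletion by PCR genotyping of MuSCs from Sirt6mKO mice. It also measured Sirt6 by RT-qPCR in MuSCs of control, mdx and Sirt6mKO/mdx mice. Xist, the RNA of the inactive X chromosome, was at 16772 and 12950 in the control libraries against 7 to 34 in the others, and Ddx3y of the Y chromosome at 3 and 8 against 1024 to 1767. The study states males for its in vivo work with control, mdx and Sirt6mKO/mdx mice. In every comparison with control, sex and genotype therefore cannot be told apart. Dmd, at 2573 and 2743 in control and 2038 to 2883 elsewhere, is no check of mdx, since the mutation is a single base change.

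**Figure D1:**
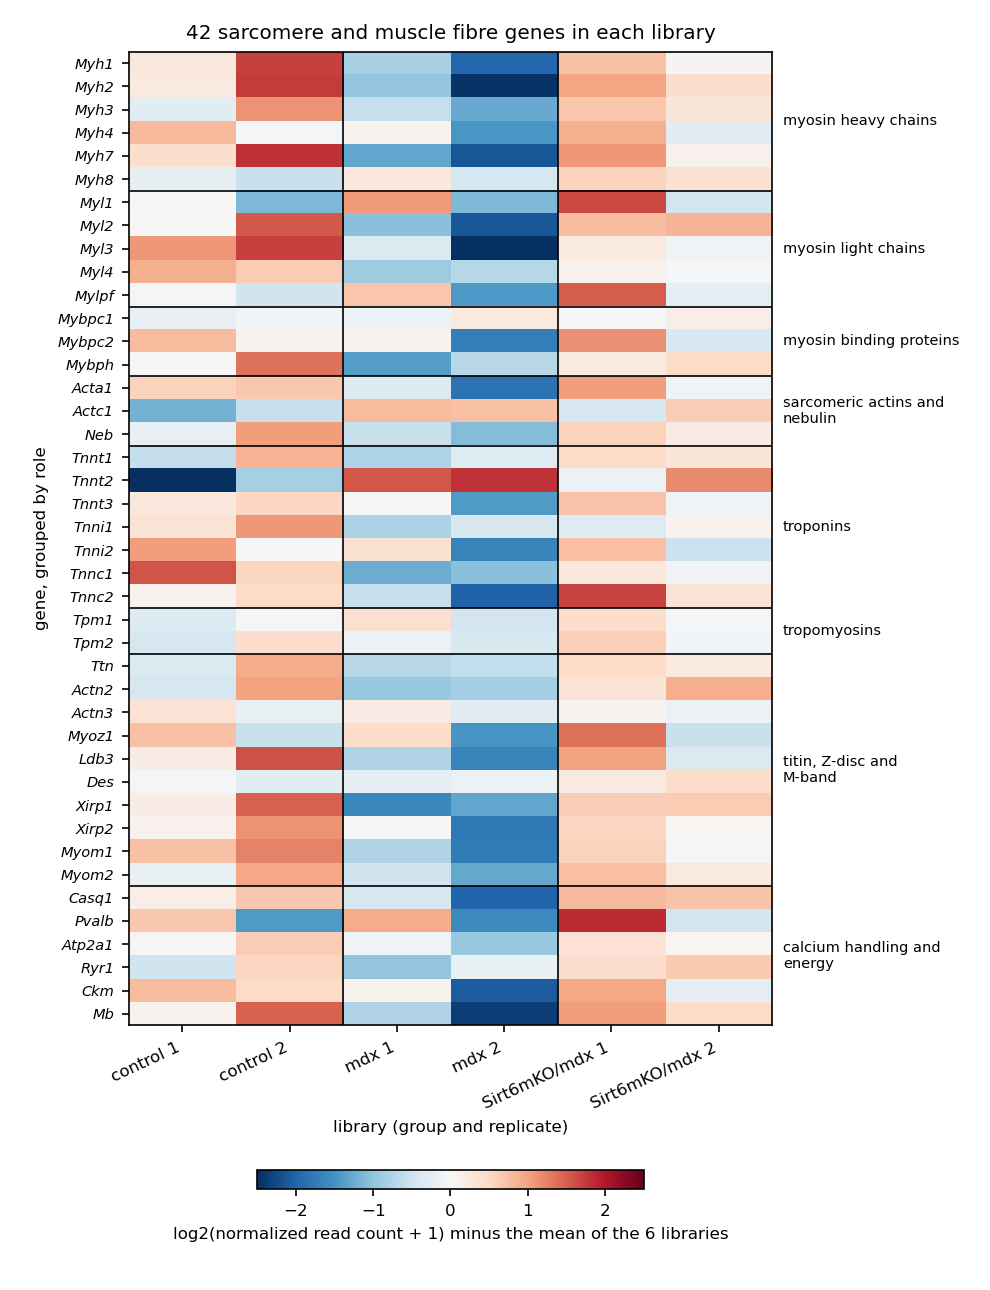
Each cell gives the log2(normalized read count + 1) of 1 gene (vertical axis, grouped by role) in 1 library (horizontal axis) minus the mean of that gene over the 6 libraries. The mdx columns are blue for most genes and red for Tnnt2 and Actc1, and mdx replicate 2 is the bluest column.

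In sum, the 42 genes took 0.425% to 1.14% of all normalized reads. The control libraries summed to 35951 and 63485, those of mdx to 29730 and 23859, and those of Sirt6mKO/mdx to 57673 and 43881. The mean in mdx was 53.9% of control, and the mean in Sirt6mKO/mdx was 190% of mdx and 102% of control. Titin, the giant spring of the sarcomere, was named after its values were seen because it carries much of this sum: Ttn stood at 13110 and 31747 (control), 10304 and 10891 (mdx) and 23631 and 19946 (Sirt6mKO/mdx). Without Ttn the other 41 genes gave 59.4% in mdx relative to control, and Sirt6mKO/mdx stood at 106% of control. When every library was scaled to the same total instead, the sum in Sirt6mKO/mdx was 123% of mdx and 65.0% of control, because these 2 libraries have the highest totals. In bulk RNA of sorted cells, fewer fibre fragments or differentiating cells and less RNA per cell cannot be told apart.

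The order of levels was read per kilobase of merged exons, as the mean of the 6 libraries. Acta1, skeletal alpha-actin, was at the top with 1170 per kilobase, ahead of Mylpf, the fast regulatory light chain, with 1070 and Des with 969. Mb, the oxygen carrier myoglobin, followed with 485 and Pvalb, the calcium buffer of fast fibres, with 419. At the other end Myh8, the perinatal myosin, had 1.47 per kilobase, Mybph 6.15 and Myl4 6.36. The libraries of 1 group often differed more than neighbours in this order, so that Acta1, Mylpf and Des are not separated: within mdx, Mylpf was at 1491 and 341. The order also changed with the group: in mdx alone Mylpf (863 per kilobase) and Des (829) were above Acta1 (526), and Mb had 140, while in Sirt6mKO/mdx Mylpf led with 1610.

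Sequences upstream of 4 genes are shown because they are the actins, a myosin and a troponin on which the contrast turns: Acta1 and Myh7 were lower in mdx than in control, and Actc1 and Tnnt2 higher. Each is the 250 bases before the RefSeq start of the gene (GRCm38.p6), read 5′ to 3′ on the gene's strand, at chr8:123894776-123895025 (minus), chr14:54994627-54994876 (minus), chr2:114052876-114053125 (minus) and chr1:135836084-135836333 (plus). Capitals mark matches to the E-box (CANNTG), the MCAT element (CATTCC), the letters TATAAA, the CArG box and the MEF2 site, searched on both strands and counted per gene over all its start sites, overlapping matches included.
Acta1: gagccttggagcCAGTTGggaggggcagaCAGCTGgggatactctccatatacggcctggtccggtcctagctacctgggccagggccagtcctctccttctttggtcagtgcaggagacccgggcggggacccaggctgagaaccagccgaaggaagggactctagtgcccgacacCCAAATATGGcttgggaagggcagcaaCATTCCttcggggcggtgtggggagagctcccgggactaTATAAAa
Myh7: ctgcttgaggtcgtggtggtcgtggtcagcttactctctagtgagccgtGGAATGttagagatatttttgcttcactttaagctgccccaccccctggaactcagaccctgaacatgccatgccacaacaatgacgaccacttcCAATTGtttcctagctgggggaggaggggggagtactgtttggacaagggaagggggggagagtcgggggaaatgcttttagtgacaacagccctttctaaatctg
Actc1: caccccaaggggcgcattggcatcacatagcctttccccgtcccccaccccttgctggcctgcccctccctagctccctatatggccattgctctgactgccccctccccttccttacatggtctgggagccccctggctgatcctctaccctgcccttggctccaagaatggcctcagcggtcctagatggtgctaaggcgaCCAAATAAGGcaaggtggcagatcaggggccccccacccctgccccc
Tnnt2: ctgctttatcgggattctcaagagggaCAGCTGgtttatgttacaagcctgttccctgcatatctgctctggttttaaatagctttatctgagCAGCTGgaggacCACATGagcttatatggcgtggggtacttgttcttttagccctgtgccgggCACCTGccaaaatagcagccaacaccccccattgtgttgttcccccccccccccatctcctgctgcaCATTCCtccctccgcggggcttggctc

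Acta1 and Actc1 each held a CArG box, the site of serum response factor, 73 and 47 bases before the RefSeq start. The Actc1 window lies inside the span that the deposited values give for the gene (chr2:114047282-114053548), so it is upstream of the RefSeq start only. Acta1 also held 2 E-boxes, the core bound by MyoD family factors, an MCAT element and TATAAA, whereas Tnnt2 held 4 E-boxes and an MCAT element, and Myh7 an E-box and an MCAT element. Of the 35 genes with a promoter in the RefSeq table, 6 (17.1%) held a CArG box against 1.62% of 27025 genes with such windows. MCAT elements were found in 31.4% against 14.4%, TATAAA in 25.7% against 14.3%, MEF2 sites in 5.71% against 0.592% and E-boxes in 82.9% against 69.3%. Among the 16 of these genes that were called lower in mdx, 4 held a CArG box, and among the other 19, 2 did. These counts describe letters in a window and not binding.

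Comparing mdx with control asks what chronic muscle degeneration changes in MuSC RNA. Most sarcomere and muscle fibre genes stood lower in mdx. Of the 42 genes, 19 were called lower and 2 higher, where a call needs a limma adjusted p of at most 0.05 and a log2 fold change of at least 1 in size. Over all 15915 genes tested, 7.34% were called lower and 6.89% higher. The median log2 fold change of the 42 genes was -1.25, against 0.00 over all genes, and 35 of the 42 were below 0. The number of calls rested on single libraries: it was 16 without control replicate 1, 8 without control replicate 2, 18 without mdx replicate 1 and 5 without mdx replicate 2, with medians of -1.53, -1.01, -1.61 and -0.87. Without a minimum mean 3 of the 42 genes were called, and with 1 prior variance for all genes 0, although 17 then had an unadjusted limma p under 0.05. The genes called in each of the 4 fits that left out a library were Myh1, Myh2, Myh7, Xirp1 and Myom1.

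Myosin heavy chains, the motors that set the speed of a fibre, summed to 2803 and 6464 (control), 1260 and 550 (mdx) and 4111 and 2429 (Sirt6mKO/mdx). The mean in mdx was 19.5% of control, and it was 14.0% without control replicate 1, 32.3% without control replicate 2, 11.9% without mdx replicate 1 and 27.2% without mdx replicate 2. Myh7, the slow myosin, stood at 802 and 2087 (control), 238 and 133 (mdx) and 1254 and 635 (Sirt6mKO/mdx). Both mdx libraries were below all 4 others, and the log2 fold change was -2.86 ± 0.41 (SE; adjusted p = 0.000293) for mdx against control and 2.32 ± 0.41 (adjusted p = 0.00314) for Sirt6mKO/mdx against mdx. Myh2, the fast oxidative myosin, stood at 671 and 1892, then 285 and 103, then 1127 and 767, in the same order of groups. Myh1, another fast myosin, stood at 724 and 1949, then 340 and 152, then 990 and 629. The mdx libraries were again the lowest for both, with log2 fold changes of -2.71 ± 0.46 (adjusted p = 0.000978) for Myh2 and -2.38 ± 0.42 (adjusted p = 0.00151) for Myh1. In Sirt6mKO/mdx they were higher than in mdx by 2.43 ± 0.46 (adjusted p = 0.00431) and 1.79 ± 0.42 (adjusted p = 0.0173). Myh3, the embryonic myosin, stood at 94 and 250 (control), 76 and 47 (mdx) and 184 and 141 (Sirt6mKO/mdx). It was called lower in mdx (-1.34 ± 0.43, adjusted p = 0.0430), and its rise in Sirt6mKO/mdx fell just short of the threshold (1.41 ± 0.43, adjusted p = 0.0514). Myh4, the fastest myosin, and the perinatal Myh8 were not called in any comparison. The genes Myh3, Myh2, Myh1, Myh4 and Myh8 lie side by side on chromosome 11, from base 67078300 at the start of Myh3, and Myh7 lies on chromosome 14 (mm10). Exons of Myh1 share 8.11% of their bases, and those of Myh7 13.3%, with genes on the opposite strand, and the counting is not stated to use strand.

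**Figure D2:**
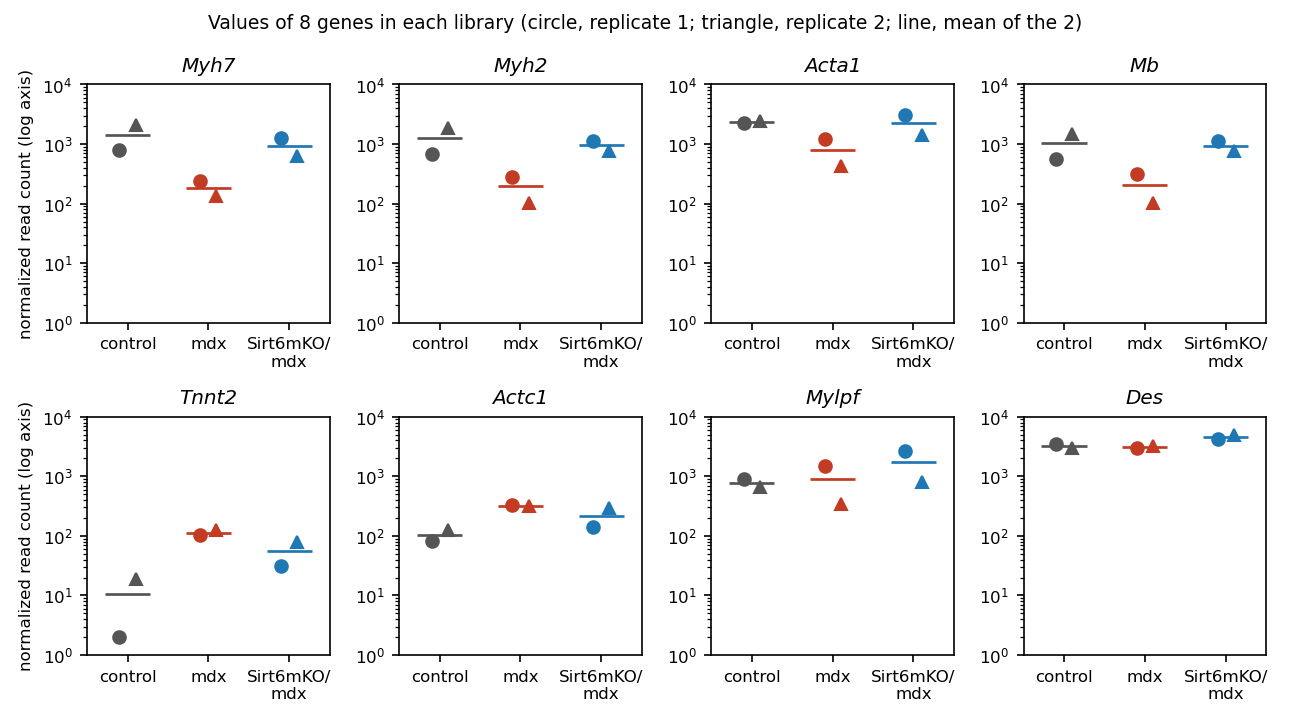
Normalized read counts (vertical axis, log scale) of 8 genes in each library of the 3 groups (horizontal axis). For Myh7, Myh2, Acta1 and Mb both mdx libraries lie below the other 4, for Tnnt2 and Actc1 they lie above them, and for Mylpf and Des the groups overlap or lie close together.

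Of the 5 myosin light chains, 2 were called lower in mdx and 1 higher in Sirt6mKO/mdx than in mdx, with medians of -1.55 and 1.02. Myl2, the slow regulatory light chain, stood at 51 and 149 (control), 24 and 11 (mdx) and 88 and 93 (Sirt6mKO/mdx). It fell by 2.35 ± 0.54 on the log2 scale in mdx (adjusted p = 0.00861) and was higher by 2.40 ± 0.54 in Sirt6mKO/mdx than in mdx (adjusted p = 0.0132). Myl3, the slow essential light chain, stood at 51 and 79, then 18 and 3, then 28 and 22. The mdx change was -2.89 ± 0.72 (adjusted p = 0.0133), and the value of 3 in mdx replicate 2 is close to the 2.33 that 3 reads give in that library. The fast light chain Mylpf stood at 911 and 658, then 1491 and 341, then 2637 and 789. The spread within mdx and within Sirt6mKO/mdx was wider than any difference between group means, and Mylpf was not called, nor were the fast Myl1 and the embryonic and atrial Myl4. The light chains of mdx summed to 2345 in replicate 1 and 546 in replicate 2, against 1441 and 1104 in control. Of the myosin binding proteins, which brace the thick filament, the slow Mybpc1 was the most abundant per length and the steadiest, at 1414 and 1561, then 1506 and 1928, then 1623 and 1837. None of the 3 was called, although Mybpc2 and Mybph had mdx log2 fold changes of -1.27 ± 0.53 and -1.71 ± 0.79.

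The skeletal and cardiac actins moved in opposite directions. Acta1 stood at 2239 and 2394 (control), 1194 and 421 (mdx) and 3105 and 1396 (Sirt6mKO/mdx). It was lower in mdx by -1.71 ± 0.42 (adjusted p = 0.0127) and higher in Sirt6mKO/mdx than in mdx by 1.55 ± 0.42 (adjusted p = 0.0336). Actc1, the cardiac actin that is also used in developing muscle, stood at 82 and 126, then 327 and 313, then 142 and 290. Both mdx libraries were above the other 4, and the mdx change was 1.64 ± 0.35 (adjusted p = 0.00489). The Sirt6mKO/mdx value lay between, with a difference of -0.65 ± 0.35 from mdx that was not called (adjusted p = 0.257). It was called when libraries were scaled to equal totals (-1.28, adjusted p = 0.0244). Neb, the ruler of the thin filament, was called lower in mdx (-1.24 ± 0.36, adjusted p = 0.0279) and higher in Sirt6mKO/mdx than in mdx (1.20 ± 0.36, adjusted p = 0.0490). With libraries scaled to equal totals, Acta1 (0.93, limma adjusted p = 0.096) and Neb (0.57, limma adjusted p = 0.291) were not called in Sirt6mKO/mdx against mdx.

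Of the 7 troponins, the calcium switch, 2 were called lower and 1 higher in mdx, with a median of -1.16. Tnnt2, the cardiac troponin T that is also expressed in developing muscle, had the highest fitted mdx change among the 42 genes. It stood at 2 and 19 (control), 103 and 124 (mdx) and 31 and 80 (Sirt6mKO/mdx). The mdx and Sirt6mKO/mdx libraries all lay above control, with log2 fold changes of 3.88 ± 0.75 (adjusted p = 0.00265) and 2.72 ± 0.75 (adjusted p = 0.0343). The value of 2 in control replicate 1 is below the 4.53 that 3 reads give there, so the fitted size depends on the pseudocount. Without control replicate 1 the mdx change was 2.51, smaller than the -3.54 of Myh7 in the same fit. Tnnc1, the slow and cardiac troponin C, stood at 98 and 47, then 13 and 15, then 39 and 30. It was lower in mdx by -2.20 ± 0.55 (adjusted p = 0.0134), and its Sirt6mKO/mdx libraries were above mdx and below control. Tnni1, the slow troponin I, was also called lower in mdx (-1.32 ± 0.42, adjusted p = 0.0422). Tnnc2, the fast troponin C, stood at 42 and 55, then 26 and 9, then 130 and 50. It was not called in mdx but was called higher in Sirt6mKO/mdx than in mdx (2.31 ± 0.60, adjusted p = 0.0265). Exons of Tnnc2 share 74.0% of their bases with Ube2c on the opposite strand, so its values are uncertain. Tnnt3, the fast troponin T and the most abundant troponin per length, stood at 585 and 699, then 494 and 183, then 805 and 458, and was not called. The tropomyosins Tpm1 and Tpm2, which cover the thin filament, were not called in any comparison. Tpm2, the more abundant per length, stood at 668 and 1210, then 811 and 684, then 1348 and 860. Its control values overlapped those of the other groups, while both Sirt6mKO/mdx libraries lay above both mdx libraries.

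Of titin and the genes of the Z-disc and M-band, 6 of 10 were called lower in mdx and 4 of 10 higher in Sirt6mKO/mdx than in mdx. Xirp1, an actin-binding protein of fibre junctions and damaged fibres, stood at 85 and 210 (control), 24 and 30 (mdx) and 116 and 117 (Sirt6mKO/mdx). The mdx libraries were the lowest and close to each other, with changes of -2.28 ± 0.44 (adjusted p = 0.00263) and 2.08 ± 0.44 (adjusted p = 0.00893). Its relative Xirp2 stood at 317 and 644, then 292 and 85, then 430 and 305, and was called lower in mdx than in control (-1.51 ± 0.46, adjusted p = 0.0337). Myom1, which links thick filaments in the M-band, stood at 443 and 629, then 159 and 78, then 396 and 261. Myom2, the fast M-band form, stood at 131 and 291, then 106 and 61, then 252 and 177. The mdx libraries were below the other 4 for both, with changes of -2.23 ± 0.34 (adjusted p = 0.000457) for Myom1 and -1.27 ± 0.39 (adjusted p = 0.0385) for Myom2. Both were called higher in Sirt6mKO/mdx than in mdx, Myom1 by 1.52 ± 0.34 (adjusted p = 0.0131) and Myom2 by 1.38 ± 0.39 (adjusted p = 0.0408). Ldb3, a Z-disc scaffold, stood at 147 and 391, then 77 and 40, then 263 and 101, with a mdx change of -2.09 ± 0.50 (adjusted p = 0.0101). Actn2, the actin crosslinker of all sarcomeric Z-discs, stood at 169 and 457, then 117 and 125, then 283 and 426. It was lower in mdx (-1.19 ± 0.38, adjusted p = 0.0442) and higher in Sirt6mKO/mdx than in mdx (1.51 ± 0.38, adjusted p = 0.0237). Des stood at 3495 and 2987, then 3016 and 3208, then 4177 and 4941, and was not called. Its 95% interval for mdx against control ran from -0.68 to 0.57 on the log2 scale. Actn3, the fast fibre crosslinker, and Ttn were not called either, and Ttn had a mdx change of -0.95 ± 0.54 (adjusted p = 0.256).

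Among the genes of calcium handling and energy, Mb, Ckm and Casq1 were called lower in mdx. Mb stood at 568 and 1491 (control), 315 and 104 (mdx) and 1108 and 754 (Sirt6mKO/mdx). Its mdx change was -2.34 ± 0.46 (adjusted p = 0.00310), and it was higher by 2.33 ± 0.46 in Sirt6mKO/mdx than in mdx (adjusted p = 0.00614). Exons of Mb share 31.9% of their bases with other genes. Casq1, which stores calcium in the sarcoplasmic reticulum, stood at 119 and 170, then 80 and 26, then 186 and 175. It was lower in mdx (-1.61 ± 0.44, adjusted p = 0.0216) and higher in Sirt6mKO/mdx than in mdx (1.96 ± 0.44, adjusted p = 0.0131). Ckm, the muscle creatine kinase, stood at 983 and 786, then 601 and 132, then 1107 and 475, and its mdx change was -1.64 ± 0.51 (adjusted p = 0.0406). The 2 mdx libraries differed 4.55-fold for Ckm, and without mdx replicate 2 its change was -0.55 and was not called. Ryr1, the calcium release channel, had a change of 1.12 ± 0.34 in Sirt6mKO/mdx against mdx that just missed the threshold (adjusted p = 0.0501). Atp2a1, the calcium pump of fast fibres, and Pvalb were not called in any comparison.

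**Figure D3:**
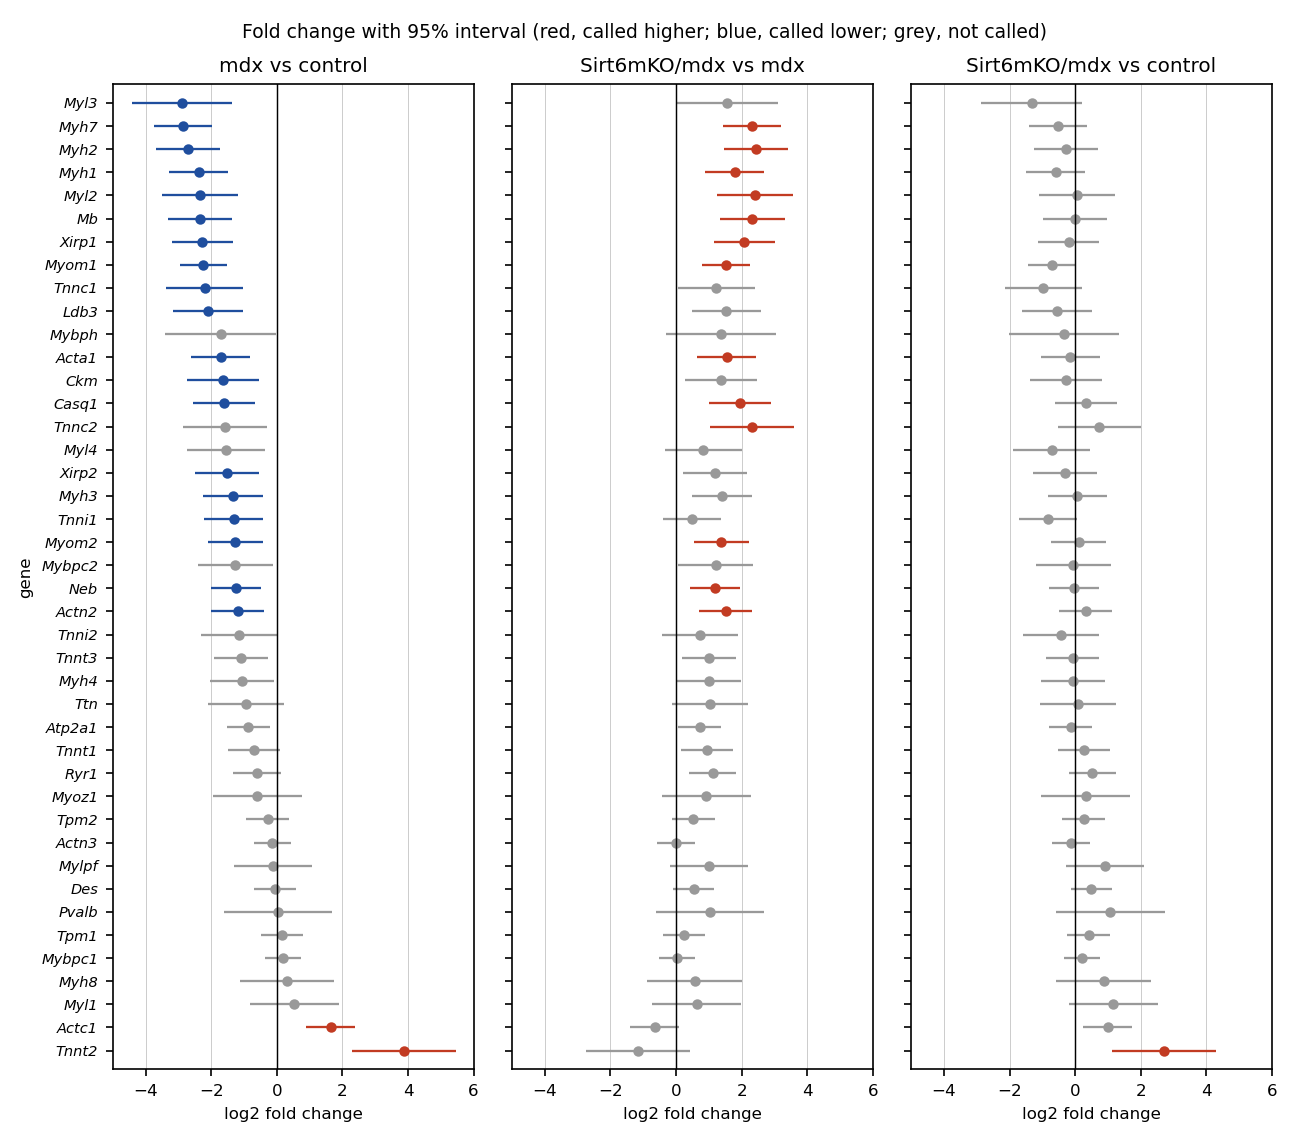
Log2 fold change (horizontal axis) with its 95% interval for each of the 42 genes (vertical axis, ordered by the mdx against control value) in the 3 comparisons. The 19 blue points of the left panel are genes called lower in mdx, the 13 red points of the middle panel are called higher in Sirt6mKO/mdx than in mdx, and the right panel has 1 call, Tnnt2.

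Comparing Sirt6mKO/mdx with mdx asks what loss of Sirt6 in the muscle lineage changes on the dystrophic background. Of the 42 genes, 13 were called higher and 0 lower, against 5.62% higher and 2.54% lower over all 15915 genes tested. The limma p unadjusted was under 0.05 for 25 of the 42. The median log2 fold change of the 42 genes was 1.16, against 0.02 over all genes, and 40 of the 42 were above 0, the exceptions being Tnnt2 (-1.16 ± 0.75) and Actc1. This comparison and mdx against control share the mdx libraries, so low values in these libraries enter both. No call held in all 4 fits that leave out a library: 12 calls were made without mdx replicate 1, 0 without mdx replicate 2, 0 without Sirt6mKO/mdx replicate 1 and 1 without Sirt6mKO/mdx replicate 2, with medians of 1.75, 0.74, 0.85 and 1.51. Without a minimum mean, or with 1 prior variance, 0 of the 42 genes were called here, and 17 and 15 had an unadjusted limma p under 0.05. Scaling libraries to equal totals put the median of all genes at -0.59 and left 7 of the 42 genes called higher and 1 lower (Actc1), with a median of 0.53. The calls of Myh1, Acta1, Neb, Actn2, Myom1 and Myom2 were lost under that scaling.

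Comparing Sirt6mKO/mdx with control, 1 of the 42 genes was called higher, Tnnt2, and 0 lower, against 5.19% higher and 2.68% lower over all genes tested. An unadjusted limma p under 0.05 was reached by 2 of the 42. The median log2 fold change was -0.02. The intervals were wide: for Myh7 the log2 fold change was -0.54 with a 95% interval from -1.42 to 0.35, and for Mb it was -0.01 with an interval from -0.99 to 0.97. With libraries scaled to equal totals, 1 gene was called higher and 3 lower, and the median was -0.63.

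By fibre type, the slow genes had a median log2 fold change of -2.20 in mdx against control, with 5 of 7 called lower. Fast genes had a median of -1.08, with 3 of 14 called lower, and developmental or cardiac forms had 0.30, with 2 of 5 called higher and 1 lower. Over all genes tested, 7.34% were called lower and 6.89% higher. By summed values, mdx stood at 59.9% of control for the slow genes and 58.4% for the fast genes. Mybpc1, which was not called, made up much of the slow sum. The difference between slow and fast genes was not tested. In Sirt6mKO/mdx against mdx, 5.62% of all genes were called higher. So were 4 of 14 fast genes, 2 of 7 slow genes and 0 of 5 developmental or cardiac forms, with medians of 1.01, 1.23 and 0.57. Under equal totals these medians were 0.39, 0.63 and -0.03.

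The 2 libraries of a group differed widely for many of the 42 genes, 30 of which were higher in replicate 1 than in replicate 2 of mdx, 32 in Sirt6mKO/mdx and 13 in control. Of the 14 fast genes, 14, 14 and 8 were so, and of the 7 slow genes 3, 4 and 1. No test of a difference between fibre types was made, and the share of all genes higher in replicate 1 was not counted. These counts are therefore not shown to be particular to the 42 genes. The summed fast genes stood at 7524 and 8918 (control), 6980 and 2618 (mdx) and 12006 and 5862 (Sirt6mKO/mdx). The summed slow genes stood at 2734 and 4714, then 2044 and 2420, then 3586 and 3125, which is a narrower gap within mdx and Sirt6mKO/mdx. Pvalb, a fast gene, stood at 489 and 113 (control), 584 and 100 (mdx) and 1111 and 222 (Sirt6mKO/mdx), and replicate 1 was 4.33 times replicate 2 in control and 5.84 times in mdx. The slow Myl3 had a ratio of 6.0 in mdx, and Ckm, of no single type, 4.55. In control Myh1, Myh2 and Myh7 were lower in replicate 1, with ratios of 0.371, 0.355 and 0.384 against 2.24, 2.77 and 1.79 in mdx. Myh4, Myl1, Mylpf, Mybpc2, Tnni2, Actn3, Myoz1 and Pvalb were the fast genes higher in replicate 1 of all 3 groups. These were picked out after their values were seen, and the labels do not say what a replicate number stands for.

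**Figure D4:**
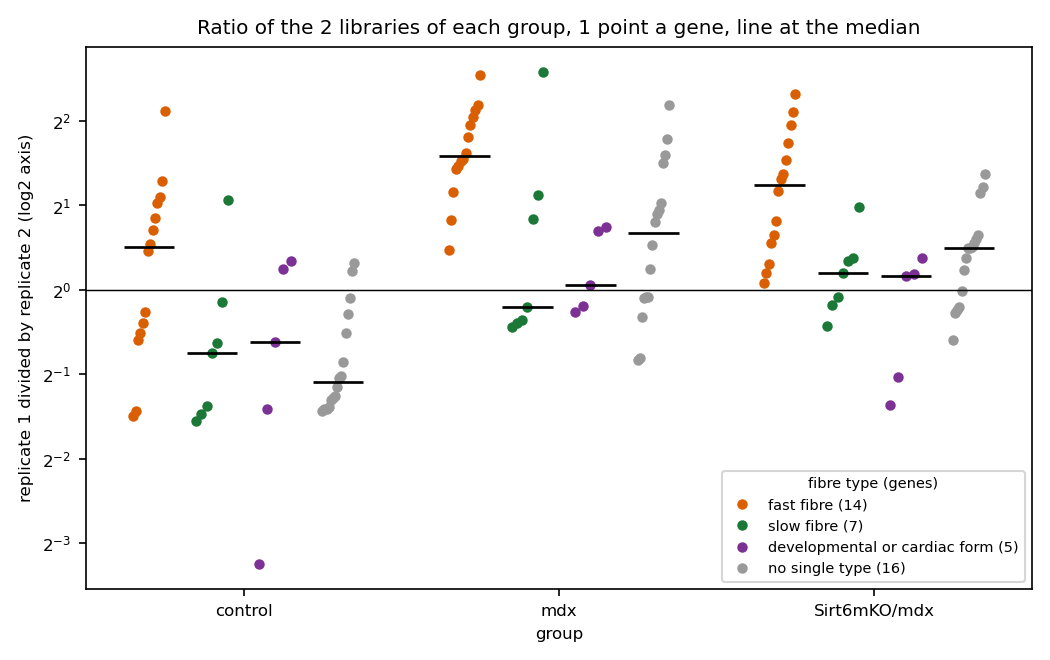
Value in replicate 1 divided by the value in replicate 2 (vertical axis, log2 scale) for each gene, by fibre type and group (horizontal axis), with a line at the median. Fast fibre genes lie above 1 in all cases in mdx and Sirt6mKO/mdx, and in 8 of 14 cases in control.

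Other genes of the same structures were read from lists that do not overlap the 42. Of 40 other sarcomere and Z-disc genes, 12 were called lower in mdx than in control and 1 higher, with a median of -0.93. Between Sirt6mKO/mdx and mdx, 13 of them were called higher and 0 lower (median 1.15). The myofibril assembly gene Nrap changed by -2.39 ± 0.48 in mdx, the titin cap Tcap by -2.37 ± 0.52 and Trim55, a ring-finger protein of the sarcomere, by 2.41 ± 0.56. Nrap and Tcap were called higher in Sirt6mKO/mdx than in mdx, by 2.45 ± 0.48 and 2.44 ± 0.52. Of 15 muscle energy genes, 4 were called lower in mdx and 0 higher, among them the mitochondrial creatine kinase Ckmt2 (-2.27 ± 0.55), and 2 were called higher in Sirt6mKO/mdx than in mdx. Of 22 excitation-contraction coupling genes, 2 were called higher and 3 lower in mdx, with a median of -0.20. For all these lists, 6.89% of all genes were called higher and 7.34% lower in mdx against control. In Sirt6mKO/mdx against mdx the shares were 5.62% higher and 2.54% lower.

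Genes of the non-muscle and smooth muscle contractile apparatus were read for comparison. Against control, mdx had 5 of these 19 genes called higher and 1 lower (median 0.29). Against mdx, Sirt6mKO/mdx had 0 called higher and 3 lower (median -0.43), where 5.62% and 2.54% of all genes were called. Vim, the intermediate filament of mesenchymal and activated cells, changed by 1.55 ± 0.38 in mdx, and Actg1, a cytoplasmic actin, by -1.51 ± 0.28. Actb, which was not called, stood at 5130 and 7169 (control), 8544 and 7040 (mdx) and 4315 and 4131 (Sirt6mKO/mdx). Myogenic differentiation and fusion genes, 13 of which passed the minimum mean, had 2 calls up and 2 down in mdx against control (median -0.05), in a comparison where 6.89% of all genes were called higher and 7.34% lower. The cell cycle inhibitor Cdkn1a was called lower in mdx (-1.89 ± 0.29) and higher in Sirt6mKO/mdx than in mdx (1.17 ± 0.29), and the transcription factor Mef2d was called lower in mdx (-1.39 ± 0.25). The inhibitor Cdkn1c was called higher in mdx (3.48 ± 0.43). Myod1 stood at 400 and 310, then 349 and 339, then 251 and 495. Myog, which marks myocytes entering differentiation, stood at 124 and 281, then 945 and 920, then 432 and 1232, and was called higher than control in mdx (2.31 ± 0.42, adjusted p = 0.00171) and in Sirt6mKO/mdx (1.96 ± 0.42, adjusted p = 0.00965). The fusion gene Tmem8c (myomaker) stood at 20 and 15, then 79 and 51, then 9 and 50.

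Markers of other cells also differed between the groups. Summed endothelial markers were at 899 and 800 (control), 422 and 419 (mdx) and 619 and 628 (Sirt6mKO/mdx), with 2 of 5 called lower in mdx. Most of this sum was Tek, with 348 to 669, which was not called. In mdx against control 4 of the 5 were below 0, and Flt1 was above 0 (0.21 ± 0.91). Summed fibro-adipogenic markers were at 20846 and 27560, then 39010 and 31967, then 21275 and 28803, with 2 of 7 called higher in mdx than in control and Col1a1 called lower in Sirt6mKO/mdx than in mdx (-1.08 ± 0.27). Most of this sum was Col3a1, with 15579 to 30817, which was not called. Summed smooth muscle and pericyte markers were at 1587 and 2747, then 3659 and 3618, then 1595 and 2180, with 1 of 6 tested called higher in mdx. Most of this sum was Acta2, with 807 to 2837, and Tagln was called lower in Sirt6mKO/mdx than in mdx (-1.56 ± 0.35) and than in control (-1.38 ± 0.35). Macrophage and leukocyte markers summed to 107 and 131 (control), 102 and 82 (mdx) and 190 and 174 (Sirt6mKO/mdx), and of 5 tested Lyz2 was called higher (3.22 ± 0.98) and Cd68 lower (-1.61 ± 0.44) in mdx than in control. Ptprc (CD45), which the sort gates against, was at 0 in both control libraries, 5 and 3 in mdx, and 3 and 19 in Sirt6mKO/mdx. Ly6a (Sca1), also gated against, was at 3 and 9 (control), 79 and 21 (mdx) and 65 and 15 (Sirt6mKO/mdx), and was called higher in mdx than in control (2.73 ± 0.84, adjusted p = 0.0363). Pecam1 (CD31), the remaining gated marker, was at 199 and 86 (control), 20 and 47 (mdx) and 67 and 114 (Sirt6mKO/mdx), and was called lower in mdx than in control (-2.06 ± 0.50, adjusted p = 0.0119). Erythroid markers summed to 56 and 19 (control), 7 and 14 (mdx) and 39 and 91 (Sirt6mKO/mdx), and Hbb-bs, a globin, was called higher in Sirt6mKO/mdx than in mdx (3.39 ± 0.91, adjusted p = 0.0313). Schwann markers summed to 14 to 50. Tenocyte markers summed to 131 to 428, with 2 of 5 called lower in mdx than in control and 1 called higher in Sirt6mKO/mdx than in control. The 14 MuSC markers, Des among them, summed to 34759 and 35182 (control), 31286 and 27937 (mdx) and 28092 and 29696 (Sirt6mKO/mdx). The fall of this sum in mdx rested largely on Sdc4, at 7692 and 6224 (control), 1100 and 1049 (mdx) and 2753 and 2822 (Sirt6mKO/mdx). Of these 14, Sdc4 and Chrdl2, a surface proteoglycan and a secreted BMP antagonist, were called lower in mdx than in control (-2.69 ± 0.28 and -2.36 ± 0.32). Sdc4 was called higher in Sirt6mKO/mdx than in mdx (1.37 ± 0.28), and Sdc4, Chrdl2 and Heyl were called lower in Sirt6mKO/mdx than in control. The part of these cells in the values of the 42 genes was not tested.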

How the data were processed

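RNA-seq of sorted MuSCs was analysed in 6 libraries: 2 control, 2 mdx and 2 Sirt6mKO/mdx, grouped by the sample labels. Per the labels and the study's methods, reads were trimmed with Reaper, aligned with STAR (2.4.2a in the submitters' processing notes, another version in the methods) to mm10 (GRCm38) and counted per gene with featureCounts 1.4.5-p1, without reads that fell on several genes or places. Strand use was not stated. The deposited values are scores, that is, read counts divided by a DESeq2 size factor per library and rounded by the authors, so count-based tests were not run. Size factors of 0.537 to 1.527, recovered from skipped and doubled whole numbers by a method tested on simulated data, gave the approximate depths. Exact counts cannot be had where a factor exceeds 1. Depths and the values of 3 reads cover counting error only.

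limma 3.58.1 (R 4.3.3) was fitted to log2(value + 1), with all 6 libraries in 1 fit, a mean-dependent prior variance and a minimum mean of 5, which left 15915 genes and all 42 members. A gene was called at a Benjamini-Hochberg adjusted p (two-sided, over all genes) of at most 0.05 and an absolute log2 fold change of at least 1. Fold changes are on this scale and understate low genes. The fit was tested on simulated data. TMM factors were computed by the TMM formula in R. Lengths and exon overlaps come from GENCODE release M21, which held 98.5% of the gene IDs, and promoters from RefSeq (GRCm38.p6). No column of values was left unused.

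The 42 genes, the lists and the tests were chosen with earlier results of these data known. Values in every library are given for up to 20 called members by size of change and for the member with the highest level per kilobase in each role. From the other lists up to 4 called genes a comparison could be named, with 1 called gene not reported here, and Pax7, Myod1, Myog, Tmem8c, Actb, Sirt6 and Dmd were fixed. Ttn, Pvalb, Xist, Ddx3y, Ptprc and Ly6a as a gated marker were named after their values were seen. Alternatives changed scaling, pseudocount, minimum mean, prior variance, weights, the libraries in the fit and the replicate block.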

Additional observations from a re-analysis of the deposited data

How the results depend on the processing

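Counts of called members and their medians are given in the order mdx against control, Sirt6mKO/mdx against mdx and Sirt6mKO/mdx against control, where the reported fit called 21, 13 and 1. Without a minimum mean 3, 0 and 0 members were called, and with 1 prior variance for all genes 0, 0 and 0. In these 2 fits 23, 17 and 2 and then 17, 15 and 2 members had an unadjusted limma p under 0.05. A robust prior variance called 13 members in mdx against control, as did fits of only the 2 groups compared. With total scaling 8 members were called in Sirt6mKO/mdx against mdx and 4 against control, and the summed level of Sirt6mKO/mdx was 123% of mdx and 65.0% of control. The call of Tnnt2 against control was lost, leaving 0, with a pseudocount of 0.1, a minimum mean of 50, a robust prior variance, voom weights, only the 2 groups compared, or without minimum mean. The median against control turned to 0.05 with a minimum mean of 50, 0.36 without control replicate 2 and 0.26 without Sirt6mKO/mdx replicate 2. Leaving out 1 library at a time gave 5 to 18, 0 to 12 and 0 to 1 called members and medians of -1.61 to -0.87, 0.74 to 1.75 and -0.30 to 0.36. The lone library left in a group was then assumed to vary like the other groups. With TMM or upper quartile scaling, a pseudocount of 10 or voom weights, the first 2 counts stayed between 18 and 21 and between 12 and 15.

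Groups share replicate numbers 1 and 2. Over 15915 genes the difference of replicate 1 and 2 correlated across groups with r = -0.128 (control and mdx), 0.119 (control and Sirt6mKO/mdx) and 0.00934 (mdx and Sirt6mKO/mdx), and over the 42 members with r = 0.467, 0.621 and 0.773, and since there are only 2 numbers and the labels do not say what they mark, the libraries were taken to share only a number. With a replicate block 25, 21 and 3 members were called, and with the mdx numbers crossed, chosen after seeing the data, 20 in mdx against control. Counting each single member, comparison and alternative once, 1710 values kept direction and side of the threshold, 206 were no longer past it, 36 newly passed it and 91 uncalled ones changed sign. Depth limits Myl3, Tnnt2 and Mybph most, which had values of a few reads in at least 1 library.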
